A study of Mus musculus with 7 samples.

Results

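The Ikaros family of zinc finger transcription factors is encoded in the mouse by 5 genes: Ikzf1 (Ikaros), Ikzf2 (Helios), Ikzf3 (Aiolos), Ikzf4 (Eos) and Ikzf5 (Pegasus). They were found in the deposited table by matching Ensembl gene IDs to these symbols, and are 5 of its 39179 gene IDs. All 5 reached a normalized read count of at least 10 in at least 3 libraries, as 12813 genes did, and so entered the test. RNA came from sorted LSK cells, the bone marrow fraction without lineage markers and with Sca-1 and Kit that holds blood stem cells and multipotent progenitors. The mutant group was 3 libraries of the genotype Jmjd1c f/f Vav1Cre. The Vav1 promoter drives Cre recombinase across blood cells, and Jmjd1c encodes a Jumonji domain protein related to demethylases of histone H3 lysine 9. The 4 control libraries were from mice with Vav1Cre and no floxed allele named, so both groups carry the Cre transgene. All mice were 7 weeks old and of the strain C57/BL6. Nothing in the labels ties a library to its own animal, so the p-values reflect the spread among these 7 libraries alone, and that spread may be technical.

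Ikaros proteins bind DNA through a set of zinc fingers near the amino end and bind each other through a pair of fingers at the carboxyl end, so that members act as homodimers and mixed dimers. They recruit the NuRD chromatin remodelling and deacetylase complex and other corepressors to genes. Ikaros itself is needed for the lymphoid line: without it multipotent progenitors fail to prime Flt3, Il7r and the recombinase genes. Helios is present in stem cells and regulatory T cells, Aiolos accumulates as B cells and T cells mature, Eos works in regulatory T cells, and Pegasus is a widely expressed member that is more distant in sequence.

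Part of the stretch that codes for the carboxyl-terminal finger pair shows how close members are. Whether reads were assigned to the wrong member was not tested. This part is printed here for the 3 more abundant members, as 120 bases read 5′ to 3′ on the coding strand. It comes from the GENCODE M21 transcript with the longest coding sequence and stops before the end of the second finger. Capitals mark the 65 positions at which these 3 genes have the same base.
Ikzf1: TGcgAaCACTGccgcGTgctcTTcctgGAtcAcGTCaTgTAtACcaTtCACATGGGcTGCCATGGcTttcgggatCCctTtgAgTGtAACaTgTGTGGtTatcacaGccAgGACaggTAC
Ikzf2: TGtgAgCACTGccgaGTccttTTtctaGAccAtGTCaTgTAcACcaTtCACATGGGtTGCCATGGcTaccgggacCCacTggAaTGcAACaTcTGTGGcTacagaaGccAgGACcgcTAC
Ikzf5: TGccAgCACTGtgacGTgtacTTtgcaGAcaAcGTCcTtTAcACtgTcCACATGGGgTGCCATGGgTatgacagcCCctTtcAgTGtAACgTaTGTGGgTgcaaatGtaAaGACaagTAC
These stretches begin at coding base 1438 in Ikzf1, 1435 in Ikzf2 and 1096 in Ikzf5. Ikzf1 and Ikzf2 were the closest of the 3 pairs, with 93 of 120 bases identical. Ikzf5 had 79 bases identical to Ikzf1 and 75 identical to Ikzf2. Over all annotated transcripts the longest identical run was 17 bases between Ikzf1 and Ikzf2, 15 between Ikzf1 and Ikzf5 and 17 between Ikzf2 and Ikzf5. Some runs with sparse members were longer, at 26 bases between Ikzf1 and Ikzf3, 24 between Ikzf1 and Ikzf4, and 32 between Ikzf2 and Ikzf4. Between Ikzf4 and Ikzf5 the longest run was 15 bases. The run between Ikzf2 and Ikzf4 and those with Ikzf5 given above were not found in the longest coding sequences.

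Positions are those of the GRCm38 assembly, which mm10 names, in the GENCODE M21 annotation. Ikzf1 lies on chromosome 11 from 11685003 to 11772926 on the plus strand, and Ikzf3 is on the same chromosome from 98464902 to 98546031 on the minus strand. Ikzf2 lies on chromosome 1 (69531214 to 69687245), Ikzf4 on chromosome 10 (128630843 to 128645991) and Ikzf5 on chromosome 7 (131388652 to 131410521), all on the minus strand. The values count a gene as a whole, so they do not tell apart the 6 annotated transcripts of Ikzf1 or the 9 of Ikzf2, among which forms that lack DNA-binding fingers are known for Ikaros.

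The sort and the genotype labels were checked first. Kit was at 5880 to 7268 normalized read counts in the Jmjd1c libraries and 4778 to 6700 in the control libraries, and the other 9 markers of the LSK list were detected in every library. Jmjd1c, the targeted gene, had 294, 244 and 254 in the Jmjd1c libraries and 458 to 516 in the control libraries, which put the log2 fold change at -0.89 ± 0.09 (limma, adjusted p = 0.00407). Normalized read counts are the authors' gene counts divided by a size factor for each library, and the reads recovered from them summed to between 4303712 and 6436519 per library. Fold changes are on the log2(value + 1) scale, from limma with Benjamini-Hochberg adjustment over all 12813 genes and a threshold of 0.05, and errors beside them are standard errors.

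None of the 5 members passed the threshold in limma, where 1.8% of all tested genes did. The unadjusted p was under 0.05 for 2 of them, Ikzf1 and Ikzf3, as it was for 19.7% of all tested genes. edgeR and DESeq2 on the recovered reads also called 0 of the 5, with the same 2 members at an unadjusted p under 0.05 in each, and DESeq2 gave no adjusted p for Ikzf3 and Ikzf4. The abundant members had small positive differences. The groups did not overlap for 1 of the 5, the sparse Ikzf3, which was lower in the Jmjd1c libraries. The same lack of overlap, in either direction, held for 16.8% of all tested genes.

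**Figure D1:**
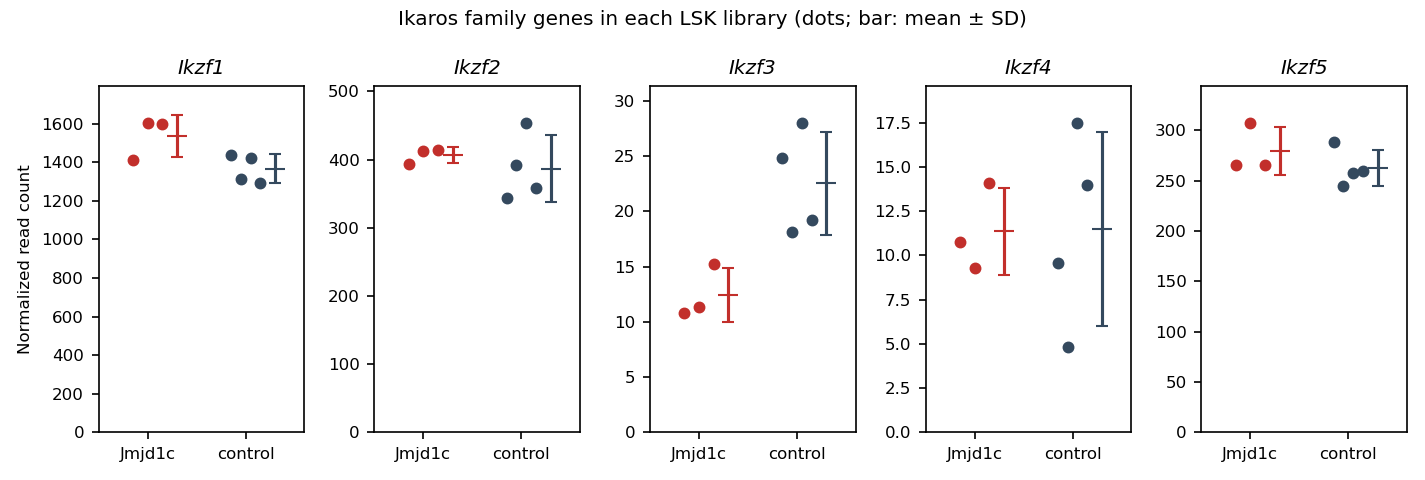
Normalized read count of each Ikaros family gene (vertical axis, from 0, 1 panel per gene) in the 3 Jmjd1c libraries and the 4 control libraries, with each library as a dot and the mean ± SD as a bar. The Ikzf3 dots of the Jmjd1c libraries, at 10.8 to 15.3, all lie below those of the control libraries, at 18.1 to 28.0, while the dots of the other 4 genes overlap between the groups.

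Ikzf1, which encodes Ikaros, had 1410, 1602 and 1598 normalized read counts in Jmjd1c libraries 1 to 3, against 1438, 1313, 1421 and 1290 in control libraries 1 to 4. Jmjd1c 2 and 3 were above every control library, and Jmjd1c 1 lay within the control range. The means were 1537 ± 109.8 in the Jmjd1c libraries (SD, n = 3) and 1365 ± 74.7 in the control libraries (SD, n = 4). The log2 fold change was 0.17 ± 0.07, with a 95% interval from 0.02 to 0.32, and did not pass (limma, adjusted p = 0.215). That interval covers ratios of Jmjd1c to control from 1.01 to 1.25. With 1088 to 1797 reads in each library, Ikzf1 was the best measured member.

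Ikzf2, which encodes Helios, had 393.1, 413.2 and 414.5 normalized read counts in the Jmjd1c libraries, against 344.0, 392.2, 453.4 and 357.6 in the control libraries. The control libraries spanned the Jmjd1c values on both sides. The Jmjd1c mean was 407 ± 12.0 (SD, n = 3) and the control mean 387 ± 48.8 (SD, n = 4). The log2 fold change of 0.08 ± 0.10 did not pass (limma, adjusted p = 0.684), and its 95% interval allows ratios from 0.91 to 1.23. Without control 3, the highest library, the log2 fold change was 0.16, and without control 1, the lowest, it was 0.03.

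Ikzf5, which encodes Pegasus, had 266, 307 and 265 normalized read counts in the Jmjd1c libraries, against 288, 245, 258 and 260 in the control libraries. Only Jmjd1c 2 was outside the control range. The log2 fold change of 0.09 ± 0.09 did not pass (limma, adjusted p = 0.638), with ratios from 0.92 to 1.23 inside its 95% interval. It was 0.02 without Jmjd1c 2 and 0.17 once GC content and gene length were corrected for. The Ikzf5 count carries a limit of its own: 4652 of the 5721 bases of its annotated exons also lie in an exon of Pstk, which encodes a kinase of selenocysteine synthesis and is on the opposite strand. Whether the authors' counting used strand is not given in the sources used here, so reads of the pair could have been dropped or shared. Pstk had 86.1, 93.8 and 86.9 in the Jmjd1c libraries, against 93.6, 84.5, 104.9 and 89.2 in the control libraries, so their difference was -0.06 on the log2 scale (limma, adjusted p = 0.830).

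Ikzf3, which encodes Aiolos, had 10.8, 11.3 and 15.3 normalized read counts in the Jmjd1c libraries, against 24.8, 18.1, 28.0 and 19.2 in the control libraries. All 3 Jmjd1c libraries were below all 4 control libraries, as was the case for 7.1% of all tested genes. The mean was 12.45 ± 2.45 in the Jmjd1c libraries (SD, n = 3) and 22.5 ± 4.66 in the control libraries (SD, n = 4). These values rest on 13, 11 and 13 reads in the Jmjd1c libraries and 31, 15, 24 and 22 reads in the control libraries. The log2 fold change of -0.80 ± 0.27 had a 95% interval from -1.40 to -0.20 and did not pass (limma, adjusted p = 0.147). Summed over each group, the reads gave a ratio of Jmjd1c to control of 0.541, with an exact 95% interval from 0.359 to 0.801 that covers counting error only. Without each library in turn the log2 fold change ran from -0.95 to -0.69 and the adjusted p from 0.165 to 0.360 (limma).

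Aiolos is a gene of maturing lymphocytes, and in a bulk sample fewer cells of a type cannot be told apart from less RNA per cell. The summed values of 11 B cell markers were 404 to 440 in the Jmjd1c libraries and 473 to 574 in the control libraries, without overlap. Of the 6 markers tested 0 were called (limma), where 1.8% of all tested genes were. Most of that sum was Cd79b, at 368 to 374 in the Jmjd1c libraries and 389 to 446 in the control libraries. The other markers were sparse, with Ms4a1 at 1.03 to 12.4 in the Jmjd1c libraries and 13.6 to 33.2 in the control libraries. Pax5, the commitment factor of B cells, was at 0.83, 0 and 0 in the Jmjd1c libraries and at 0, 0, 2.33 and 0 in the control libraries, and none of the 11 markers was at 0 in all 7. The sums of 9 plasmacytoid dendritic cell markers also did not overlap, at 1887 to 2011 in the Jmjd1c libraries and 2040 to 2809 in the control libraries. Most of that sum was Tcf4, Irf7 and Bst2, and Irf7 and Bst2 overlapped between the groups. Irf7 averaged 583 in the Jmjd1c libraries and 758 in the control libraries. Bst2 went the other way, with 469.5 in the Jmjd1c libraries and 398.6 in the control libraries, and Klk1 was at 0 in every library. T cell markers summed to 426 to 695 in the Jmjd1c libraries and 613 to 793 in the control libraries, which overlap, with Lck making up most of the sum and Cd3d, Cd3e and Cd3g under 11 everywhere. The sums of neutrophil markers did not overlap either, at 6911 to 9928 in the Jmjd1c libraries and 9958 to 13390 in the control libraries. Nor did those of mast cell and basophil markers, at 2433 to 4871 in the Jmjd1c libraries and 5923 to 9146 in the control libraries. Of the 7 tested mast cell and basophil markers 1 fell, as did 0.289% of all tested genes. It was the basophil protease gene Prss34 (limma, adjusted p = 0.041), which made up most of the sum. Mcpt8 was also lower without overlap, while Cpa3 and Fcer1a overlapped between the groups. The sparse Tpsb2 averaged 6.14 in the Jmjd1c libraries and 2.99 in the control libraries. Plasma cell markers summed to 10050 to 30330 in the Jmjd1c libraries and 20690 to 30040 in the control libraries, which overlap. Of the 11 plasma cell markers 2 fell, as did 0.289% of all tested genes. These were the immunoglobulin heavy chain genes Ighg2c, at 0 to 2.48 in the Jmjd1c libraries and 15.7 to 66.4 in the control libraries, and Igha, at 258 to 943 in the Jmjd1c libraries and 1283 to 5497 in the control libraries (limma, adjusted p = 0.0133 and 0.0376). Among the other plasma cell markers, Ighm, Xbp1 and Sdc1 overlapped between the groups. Xbp1 averaged 615 in the Jmjd1c libraries and 609 in the control libraries. Jchain and Igkc had lower means in the Jmjd1c libraries and overlapped too. The part of any of these cells in the Ikzf3 difference was not tested.

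Ikzf4, which encodes Eos, had 10.8, 9.27 and 14.1 normalized read counts in the Jmjd1c libraries, against 9.60, 4.83, 17.5 and 13.99 in the control libraries. The control libraries spread over a wider range than the Jmjd1c libraries and enclosed it. From 4 to 16 reads per library stand behind these values, so only large differences were detectable at this depth. The log2 fold change of 0.09 ± 0.41 had a 95% interval that allows ratios from 0.57 to 2.0 (limma, adjusted p = 0.923). Its sign turned without Jmjd1c 3 (-0.06) and without control 2 (-0.23), and in edgeR and DESeq2 on recovered reads (-0.03 in each).

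**Figure D2:**
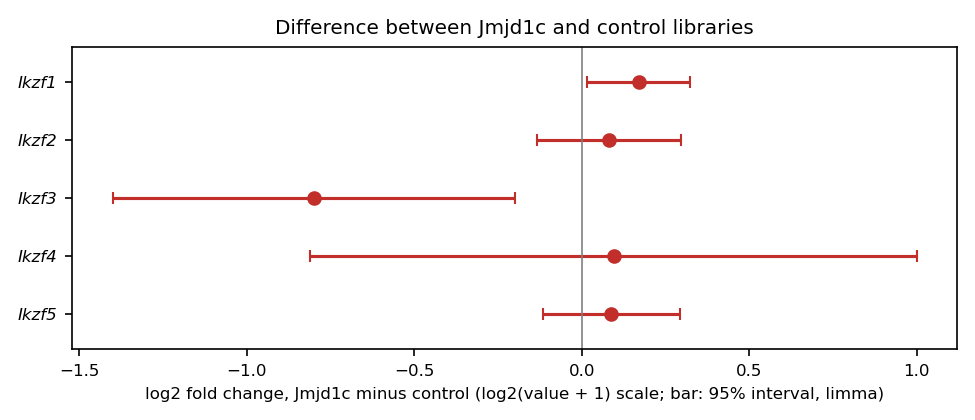
Log2 fold change of Jmjd1c minus control libraries for each Ikaros family gene (horizontal axis, log2(value + 1) scale), with the limma 95% interval as a bar. The intervals of Ikzf2, Ikzf4 and Ikzf5 span 0, that of Ikzf1 runs from 0.02 to 0.32 and that of Ikzf3 from -1.40 to -0.20, before any adjustment for the 12813 genes tested.

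Levels were compared between genes only per length, as normalized read counts per kilobase of the union of annotated exons. Ikzf1 averaged 266 ± 19.0 per kilobase in the Jmjd1c libraries (SD, n = 3) and 236 ± 12.9 in the control libraries (SD, n = 4). Over all 7 libraries its mean level of 249 per kilobase was above that of 89.5% of the tested genes with an annotated length. Ikzf5 followed with a mean of 47.15 per kilobase and Ikzf2 with 34.05, near the middle of the tested genes. Ikzf3 and Ikzf4 averaged 2.08 and 1.91 per kilobase, above only 1.88% and 1.47% of the tested genes.

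The order of neighbouring levels held in every library down to the sparse pair. Ikzf1 was 4.92 to 5.96 times Ikzf5 per kilobase, Ikzf5 was 1.15 to 1.70 times Ikzf2, and Ikzf2 was 10.5 to 27.5 times Ikzf3, in each case in 7 of 7 libraries. Ikzf3 and Ikzf4 overlapped, with the ratio of Ikzf3 to Ikzf4 between 0.685 and 2.57 and Ikzf3 the higher of the pair in 3 libraries. The choice of length mattered in the middle: per kilobase of the longest coding sequence Ikzf2 came before Ikzf5 in 6 of 7 libraries, since most of the 11613 exon bases of Ikzf2 are outside its coding sequence of 1596 bases. Per kilobase of the longest coding transcript the order was the same as per kilobase of exons. Under both of these shorter lengths Ikzf3 was above Ikzf4 in 7 of 7 libraries, by a ratio of means of 2.155 per kilobase of coding sequence and 2.24 per kilobase of transcript.

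**Figure D3:**
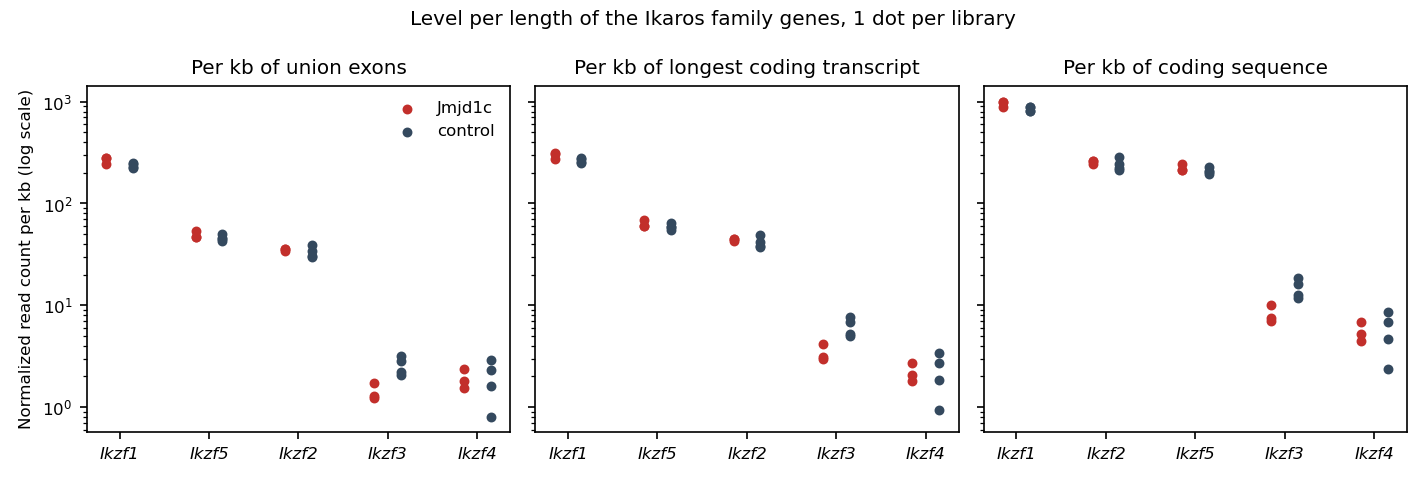
Normalized read count per kilobase (vertical axis, log scale) of the 5 genes in each library, with Jmjd1c libraries left of control libraries, under 3 definitions of length. Ikzf1 stands above the rest in every panel, Ikzf5 and Ikzf2 exchange places when only the coding sequence is counted, and Ikzf3 and Ikzf4 stay lowest.

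As a share of the family's total per kilobase, Ikzf1 made up 74.6% to 76.25% in the Jmjd1c libraries and 73.2% to 74.7% in the control libraries. Ikzf5 made up 12.8% to 14.5% in the Jmjd1c libraries and 13.4% to 15.1% in the control libraries, and Ikzf2 9.63% to 10.3% in the Jmjd1c libraries and 8.89% to 11.6% in the control libraries. Ikzf3 was the only member whose share did not overlap between the groups, at 0.35% to 0.48% in the Jmjd1c libraries and 0.67% to 0.95% in the control libraries. The Ikzf4 share was 0.42% to 0.65% in the Jmjd1c libraries and 0.26% to 0.87% in the control libraries. These shares hold for union exon lengths and move with the definition of length.

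The genes whose profile over the 7 libraries was most like each member were found by the root-mean-square difference of centred log2 values, which is 0 for identical profiles. For Ikzf1 they were Ogfod1, which encodes a hydroxylase of a ribosomal protein, at a difference of 0.02, and the aminopeptidase gene Xpnpep1 at 0.03, against a spread of Ikzf1 itself of 0.11. Ogfod1 had 189, 210 and 211 normalized read counts in the Jmjd1c libraries, against 187, 173, 195 and 170 in the control libraries. That it repeats the low Jmjd1c 1 of Ikzf1 follows from its choice by likeness over these same libraries. For Ikzf2 they were Pigk and the death ligand gene Tnfsf10 (0.05 each), and for Ikzf5 the RNA polymerase I subunit gene Polr1e and the aminopeptidase gene Lap3 (0.04 each).

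For Ikzf3 the nearest were Rora, a nuclear receptor of innate lymphoid cells, at a difference of 0.14, and Zbtb33, which encodes the methyl-DNA binding factor Kaiso, at 0.16, against a spread of 0.46. Rora had 40.6, 36.1 and 50.5 normalized read counts in the Jmjd1c libraries, against 72, 56.7, 87.4 and 49.8 in the control libraries, so that Jmjd1c 3 lay just above control 4. Zbtb33 had 25.7, 23.7 and 29.4 in the Jmjd1c libraries, against 54.4, 39.8, 47.8 and 47.2 in the control libraries. Both genes were chosen for their likeness to Ikzf3 over these same libraries, so their lower Jmjd1c values follow from that choice and are given as a description. For Ikzf4 the nearest were Zfp786 (0.15) and Lrrc36 (0.18), which like Ikzf4 averaged under 20 normalized read counts in both groups.

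Proteins that Ikaros family members work through were read from a list of 20 subunits of NuRD, SIN3, CtBP and SWI/SNF complexes. All 20 were tested, 1 rose, as did 1.51% of all tested genes, 0 fell and 19 did not pass (limma), with a median log2 fold change of 0.27, against -0.01 over all tested genes. The gene that rose was Smarca4, the ATPase of the SWI/SNF complex. It had 579, 764 and 884 normalized read counts in the Jmjd1c libraries, against 573, 477, 420 and 448 in the control libraries. The groups did not overlap, although Jmjd1c 1 was only just above control 1, and the log2 fold change was 0.62 ± 0.14 (limma, adjusted p = 0.0488). That call was lost without each library other than Jmjd1c 1, with log2 fold changes of 0.48 to 0.71 and adjusted p-values from 0.0536 to 0.227 in those fits. It was also lost after TMM scaling (limma, adjusted p = 0.0508) and in edgeR on recovered reads (0.051), while DESeq2 on recovered reads kept it (0.000759).

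In 7 of the 20 genes the Jmjd1c libraries were all above the control libraries, as in 9.74% of all tested genes. In 1 they were all below, as in 7.1% of all tested genes. Values of single subunits other than Smarca4 were chosen after they were seen. Chd4, the helicase at the core of NuRD, had 927, 970 and 1045 normalized read counts in the Jmjd1c libraries, against 890, 876, 909 and 828 in the control libraries (log2 fold change 0.16 ± 0.07, limma adjusted p = 0.216). The histone-binding subunit Rbbp7 averaged 2364 ± 171 in the Jmjd1c libraries (SD, n = 3) and 1816 ± 235 in the control libraries (SD, n = 4), and Smarcc1, a core subunit of SWI/SNF, 552 ± 68.7 in the Jmjd1c libraries and 412 ± 34.5 in the control libraries. Their adjusted p-values were 0.0609 and 0.0538 in limma and 0.00579 and 0.0113 in DESeq2. In DESeq2 3 of the 20 rose, as did 473 of all 12813 tested genes, a larger count than in limma. Mta1, Mbd3 and Sin3a had log2 fold changes of 0.53, 0.45 and 0.27, and Ctbp2, a partner of Ikaros outside NuRD, had -0.28 and did not overlap either. The list's counts leaned on single libraries: 6 of the 20 rose without Jmjd1c 1, where 511 of all 12813 tested genes rose, against 194 with all libraries. Without each of the other libraries 0 of the 20 rose, with between 0 and 160 of all tested genes. Once GC content and gene length were corrected for, 0 of 20 passed, the median was 0.12, Chd4 had 0.06 and Mbd3 0.20.

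The list of 11 enzymes that act on Ikaros proteins held the cereblon ubiquitin ligase, through which thalidomide-type drugs degrade human Ikaros and Aiolos, casein kinase 2 and protein phosphatase 1. All 11 were tested and 0 passed in limma, where 1.8% of all tested genes did. The unadjusted p was under 0.05 for 0 of them, against 19.7% of all tested genes. edgeR and DESeq2 also called 0 of the 11, against 233 and 590 of all 12813 tested genes. The median log2 fold change was 0.02. The smallest p-values were those of the receptor subunit Crbn and the scaffold Cul4a. Crbn had 884, 802 and 781 normalized read counts in the Jmjd1c libraries, against 858, 897, 941 and 922 in the control libraries, or -0.14 ± 0.07 on the log2 scale (limma, adjusted p = 0.289), and -0.0054 once GC content and gene length were corrected for. Jmjd1c 2 and 3 were below every control library and Jmjd1c 1 was not. For Cul4a the difference was 0.23 ± 0.12 on the log2 scale (limma, adjusted p = 0.314), and 0.09 without Jmjd1c 3.

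Genes whose priming in multipotent progenitors needs Ikaros, with early B lineage genes downstream, made a list of 20, of which 17 were tested. Of these 1 fell, as did 0.289% of all tested genes, 0 rose and 16 did not pass (limma), with a median log2 fold change of -0.39, against -0.01 over all tested genes. The gene that fell was Il7r, the receptor of the main early lymphoid growth factor, with 47.2, 34.0 and 43.4 normalized read counts in the Jmjd1c libraries, against 80.0, 77.2, 87.4 and 77.0 in the control libraries. The Il7r call (log2 fold change -0.95, limma adjusted p = 0.0317) was lost without Jmjd1c 2, Jmjd1c 3, control 1, control 2 or control 3, at adjusted p-values of 0.0536 to 0.176, and once GC content and gene length were corrected for (0.0588). In 7 of the 17 genes all Jmjd1c libraries were below all control libraries, as in 7.1% of all tested genes, and in 0 they were all above, as in 9.74%.

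Of the genes below, chosen after their values were seen, none passed in limma with all 7 libraries and the settings above. On the same libraries DESeq2 on recovered reads called Dntt and Ly6d (adjusted p = 0.000766 and 0.0312), as did limma with array weights (0.0329 and 0.0486), and Dntt also passed with no filter on low values (0.0376) or a filter at 50 (0.0483). Dntt, the terminal transferase of antigen receptor joining, had 2809, 2175 and 2704 normalized read counts in the Jmjd1c libraries, against 3591, 3984, 3534 and 2987 in the control libraries (log2 fold change -0.46 ± 0.11, limma adjusted p = 0.053). Its adjusted p was 0.0304 without Jmjd1c 1 and 0.0273 without control 4. Ccr9, a homing receptor of lymphoid progenitors, had 140.7, 87.6 and 19.96 in the Jmjd1c libraries, against 178, 221, 199 and 192 in the control libraries. The Jmjd1c libraries were far apart here, with Jmjd1c 3 the lowest, and the log2 fold change of -1.63 ± 0.47 (limma, adjusted p = 0.0967) was -0.82 without Jmjd1c 3. Ly6d, a marker of B-primed progenitors, averaged 15.9 ± 6.76 in the Jmjd1c libraries (SD, n = 3) and 38.7 ± 11.2 in the control libraries (SD, n = 4), and the adaptor gene Blnk 55.3 ± 14.1 in the Jmjd1c libraries and 90.7 ± 18.5 in the control libraries. Flt3, whose receptor marks lymphoid-primed progenitors, overlapped between the groups, with 5295, 4841 and 4039 in the Jmjd1c libraries, against 5589, 5622, 5956 and 5172 in the control libraries.

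The lymphoid list shares genes such as Cd79a, Cd79b and Vpreb3 with the B cell markers and Ccr9 and Ly6d with the plasmacytoid dendritic cell markers whose sums were lower in the Jmjd1c libraries, and the part of such cells in its values was not tested. Without Jmjd1c 1, 5 genes of the list fell, in a fit where 113 of all 12813 tested genes did, against 37 with all libraries. Without control 4, 2 genes of the list and 42 of all tested genes fell, and without each of the other libraries 0 of the list and 3 to 17 of all tested genes fell. Its median stayed between -0.45 and -0.27 when each library was left out.

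Of 24 transcription factors of early lymphoid fate, 19 were tested, 2 rose, 0 fell and 17 did not pass (limma), where 1.51% of all tested genes rose and 0.289% fell. Tcf3, which encodes the E2A proteins that act beside Ikaros in early B cells, had 96.0, 104.1 and 138.5 normalized read counts in the Jmjd1c libraries, against 69.6, 64.0, 61.8 and 54.2 in the control libraries (log2 fold change 0.83 ± 0.16, limma adjusted p = 0.0374). Myb had 1419, 1683 and 1692 in the Jmjd1c libraries, against 1283, 1174, 1209 and 1081 in the control libraries (0.43 ± 0.08, limma adjusted p = 0.0343). Both calls were lost without Jmjd1c 2, Jmjd1c 3, control 2 or control 3, and that of Tcf3 also without control 1, with adjusted p-values from 0.055 to 0.203 in those fits. Once GC content and gene length were corrected for, neither was called, at 0.57 for Tcf3 and 0.45 for Myb (limma, adjusted p = 0.0936 and 0.0508). The E protein gene Tcf4, chosen after its values were seen, was lower in each Jmjd1c library, at 734 to 823, than in any control library, at 845 to 948, and did not pass (limma, adjusted p = 0.16). The median of the list was -0.07, and its sign turned without Jmjd1c 2 (0.04) and without control 4 (0.05).

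The 8 Notch target genes that Ikaros represses in thymocytes could not be tested, since none reached a value of 10 in 3 libraries. Hes1 had 5.79, 5.15 and 5.87 normalized read counts in the Jmjd1c libraries, against 5.60, 1.21, 2.33 and 7.87 in the control libraries. Il2ra, the high-affinity interleukin 2 receptor chain, had 5.79, 4.12 and 3.52 in the Jmjd1c libraries, against 5.60, 8.45, 11.7 and 13.1 in the control libraries. Ptcra, the pre-T cell receptor chain of thymocytes, was at 0 in all 7 libraries.

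**Figure D4:**
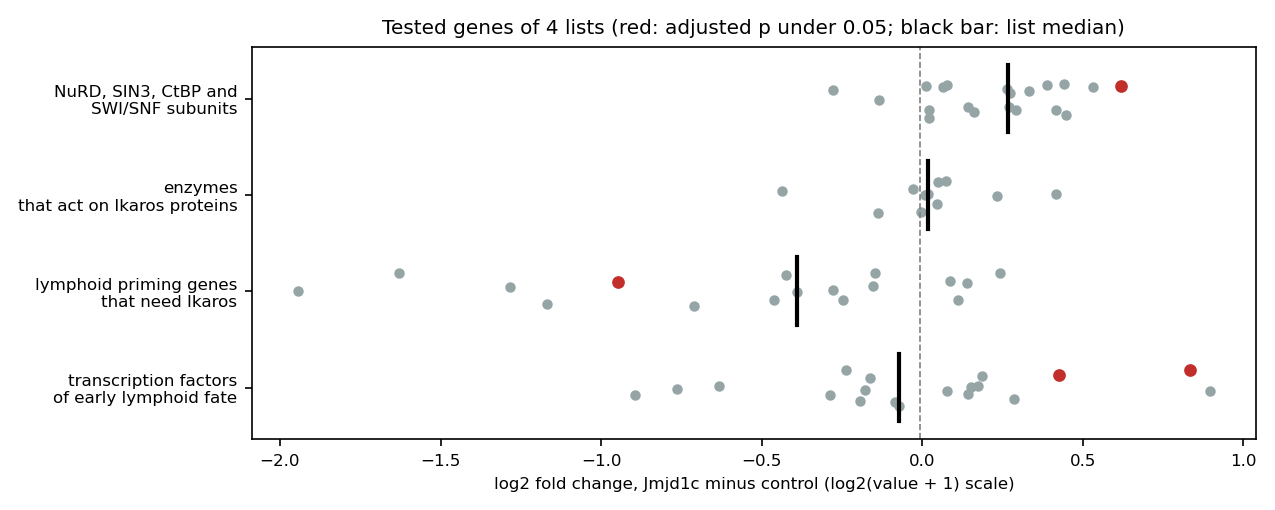
Log2 fold change of Jmjd1c minus control libraries (horizontal axis, log2(value + 1) scale) for the tested genes of 4 lists, with each gene as a dot spread vertically at random within its row. Red dots passed an adjusted p of 0.05 in limma (Smarca4, Il7r, Tcf3 and Myb), black bars are list medians, from -0.39 to 0.27, and the dashed line is the median of all tested genes at -0.01.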

How the data were processed

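Bulk RNA-seq of 7 sorted LSK samples was analysed from a table of normalized signal per gene, deposited by the authors. Libraries were made with an ultra-low-input SMARTer kit, per the labels' protocols. Trim Galore 0.2.8, STAR, HTSeq 0.6.1p1, DESeq 1.18.0 and the build mm10 appear in the submitters' processing notes, and neither the annotation release nor the strand setting is given in the sources used here.

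Each deposited column was divided by its step, the worth of a single read, which gave whole reads within 0.01 for 100% of the values above 0. Symbols matched 37607 of 39179 IDs. limma-trend (limma 3.58.1, R 4.3.3) was run on log2(value + 1) for genes that reached a value of 10 in 3 or more libraries, 3 Jmjd1c against 4 control libraries in a single fit, and its steps were tested on simulated counts. edgeR 4.0.16 and DESeq2 1.42.0 were run on recovered reads. Intervals of read ratios are exact and cover counting error only. No batch is given in the labels.

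Members, lists and tests were chosen with earlier results of these data known. Named genes are the 5 members, Jmjd1c, the 2 genes most like each member, and list genes that were called, or the 2 smallest p-values of a list without a call. Alternatives were 2 other pseudocounts, 2 other filters, other scalings, limma without its trend or with array weights, a replicate block, a GC content and length correction, and each library left out; 136 tested genes had no annotated length. Some items of the lists and sequences are not reported here.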

Additional observations from a re-analysis of the deposited data

Results flagged for a closer look

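Among the control libraries, control 4 stood apart in the summed values of 11 macrophage markers, at 11170 normalized read counts, against 2968 to 4274 in controls 1 to 3. The Jmjd1c libraries had 2699 to 4545. It was the only one of 48 quantities checked among the 4 control libraries in which a single library lay this far from the others, and chance flags about 1 in 20. Without control 4 the log2 fold changes were 0.14 for Ikzf1 and -0.87 for Ikzf3, and neither passed (limma, adjusted p = 0.337 and 0.179).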

How the results depend on the processing

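No member passed the threshold under any alternative, and Ikzf1, Ikzf2, Ikzf3 and Ikzf5 kept their sign in all of them. Ikzf1 ranged from 0.14 to 0.23, Ikzf2 from 0.03 to 0.16, Ikzf3 from -0.95 to -0.53 and Ikzf5 from 0.02 to 0.17 on the log2 scale. The filter at 50 leaves no value for Ikzf3 and Ikzf4. Ikzf4 turned to -0.0324 in edgeR and -0.0277 in DESeq2, and ran from -0.23 to 0.33 with each library left out. The count of genes called, 231 with all libraries (194 higher, 37 lower), was 0 in limma without the intensity trend (2213 at an unadjusted p under 0.05), 26 (18 higher, 8 lower) once GC content and gene length were corrected for, 590 in DESeq2 and 233 in edgeR. It was 624 without Jmjd1c 1, 3 without Jmjd1c 2, 9 without Jmjd1c 3, 68 without control 1, 3 without control 2, 3 without control 3 and 202 without control 4. Pairing by replicate number was not seen: deviations of same-numbered libraries correlated at -0.152, -0.002 and 0.017. The highest correlation of Jmjd1c 1 was with control 4 (0.315). Deviations were taken from group means of so few libraries that these correlations cannot exclude a pairing. With the replicate number as a block 16 genes (9 higher, 7 lower) were called, against 202 for the same libraries without it, and 0 members (Ikzf1 0.14, Ikzf3 -0.87). Near 0, Lrrc36 (-0.006) turned to 0.0345 after quantile normalization and to 0.025 with the block and for the same libraries without it. With each library left out Lrrc36 ran from -0.30 to 0.20, Zfp786 from -0.0538 to 0.39 and Lap3 from -0.0316 to 0.0819; the cause was not tested. With length as the longest coding sequence 2 of the 5 members exchanged places in the order of levels.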
